A study of Mus musculus with 29 samples.

Results

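The CCN family comprises secreted matricellular growth factors, proteins that sit in the extracellular matrix and signal to cells rather than build its scaffold. The 5 members followed here were Ctgf (CCN2), Cyr61 (CCN1), Nov (CCN3), Wisp1 (CCN4) and Wisp2 (CCN5), found by these older symbols among the 29955 genes of the deposited mouse expression table. Cardiac RNA was compared between C57BL6 mice with induced heart failure (HF), mice recovering from it, and controls. Induction began in 3-month-old male mice whose water held 1% NaCl together with L-NAME (0.3 mg/ml), which blocks nitric oxide synthesis, over 5 weeks. Angiotensin II was added after the first week at 0.7 mg/kg/day from a 28-day osmotic pump. Recovery mice went through the same induction and were then returned to plain water while the pump ran out.

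HF hearts were taken at week 3 (2 libraries) and week 5 (3 libraries). Recovery hearts were taken at week 7 (2), week 9 (2), week 11 (3), week 13 (2) and week 19 (5), and untreated controls were taken at week 19 (5 libraries). Week 5 controls are also labelled, in 4 samples, but they were not used because 5 columns carry their name. HF hearts and hearts of Recovery weeks 7 to 13 were thus compared with older controls here. Age and treatment cannot be told apart in those comparisons. The same holds where recovery hearts are compared with the younger HF week 5 hearts. The labels name whole heart and whole ventricle, whereas the study's methods name apical portions frozen for sequencing. In whole tissue, fewer cells of a type and less RNA per cell cannot be told apart.

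CCN proteins bind integrins, LRP coreceptors and heparan sulfate carriers. Ctgf is a classical target of TGF-beta and angiotensin II and is known for its association with fibrosis, and Cyr61 regulates cell adhesion and angiogenesis and is transcribed within minutes of growth factor stimulation. Both are standard readouts of YAP and TAZ, which act through TEAD proteins at DNA when the Hippo kinases are off. Nov binds integrins and Notch1 and often opposes Ctgf. Wisp1 is a Wnt-induced member, and Wisp2 lacks the C-terminal domain found in the rest of the family.

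The sequence around the start site is shown for Cyr61 (official symbol Ccn1), because of the 5 members only Cyr61 matched the promoter table. The sequence spans 250 bases before to 50 bases after the start, on the minus strand at chr3:145649936-145650235 of GRCm38.p6, from RefSeq. Capitals mark, in order, a TEAD motif, a partial cAMP response element and a TATA box.

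Cyr61 promoter: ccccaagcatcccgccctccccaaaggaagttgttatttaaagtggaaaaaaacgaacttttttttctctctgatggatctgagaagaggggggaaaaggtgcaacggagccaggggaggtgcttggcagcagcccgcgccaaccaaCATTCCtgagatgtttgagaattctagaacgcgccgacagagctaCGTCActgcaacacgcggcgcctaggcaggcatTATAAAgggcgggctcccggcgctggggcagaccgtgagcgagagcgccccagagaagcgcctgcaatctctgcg

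The TEAD motif GGAATG was found on the opposite strand as CATTCC at bases 148 to 153, its first base lying 103 bases before the start site. The shortened cAMP response element TGACG, likewise reversed as CGTCA, occupied bases 193 to 197, and TATAAA occupied bases 226 to 231. None of these 3 matches overlapped another. Both strands were searched, and of 32851 promoters of the same length 14.7% held GGAATG, 20.8% held TGACG and 13.6% held TATAAA. A match of letters describes the sequence and does not show that a factor was bound there.

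The libraries differed in ways that touch the members. Relative depth, read from the steps between low values, spanned 0.728 to 1.40 over 23 libraries, while absolute depth is unknown. HF week 3 library 1 gave no such steps and had 12816 genes with a value above 0 where the rest had 16339 to 18091. Its correlation with the other HF week 3 library was the lowest of all replicate pairs (r = 0.885). The 10 most abundant genes took 14.6 to 17.4% of summed FPKM in the 10 week 19 libraries and 27.9 to 37.4% in Recovery weeks 7 to 13. The cardiomyocyte markers Myh6, Myl2 and Actc1 were listed at 0 in every control library although they are abundant in heart muscle, so a 0 in this table can be a failed estimate. Summed FPKM of 5 atrial markers was 89.6 to 349 in controls, 7737 to 14050 at HF week 3 and 2229 to 81735 at HF week 5, with the highest value in HF week 5 library 1. Summed FPKM of 7 epicardial and mesothelial markers was 2.58 to 3.92, 73.7 to 239 and 12.5 to 85.8 in the same groups. The hypertrophy genes Nppa, Nppb, Myh7 and Acta1 all rose at HF week 5 against control (4 of 4, median log2 fold change 2.47), although Nppa was listed at 0 in both HF week 3 libraries. The part of these differences in the results below was not tested. The atrial and mesothelial sums of all 5 HF libraries exceeded those of every control, so leaving out HF week 5 library 1 and the HF week 3 libraries, as done beside the results below, removes only the highest of them.

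Over all 24 libraries, Ctgf averaged 51.8 FPKM (fragments per kilobase of transcript, scaled to sequencing depth), followed by Cyr61 at 27.8, Wisp2 at 17.7 and Nov at 1.45. FPKM is scaled to transcript length, so these levels can be set side by side. The order depended on the group and the summary. Cyr61 had the higher mean in controls (43.2 against 22.5 FPKM) and at Recovery week 19 (38.1 against 21.9 FPKM), each raised by 1 library at 108 FPKM, whereas its medians there (20.4 and 17.3 FPKM) were under those of Ctgf (20.8 and 21.3 FPKM). Wisp1 was barely measured. It stood above 0.001 FPKM in 3 of 24 libraries, at 0.0933 in Control week 19 library 2, 0.196 in HF week 3 library 2 and 0.119 in Recovery week 19 library 2. The other 21 libraries listed it at 6.44e-05 to 6.71e-05, and its mean of 0.0171 FPKM fell short of the 0.5 needed for testing. Wisp1 therefore had no usable value in most libraries, and 4 of the 5 members were tested. Wisp3, a family gene outside the rule, reached at most 0.174 FPKM and was not tested either.

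The first comparison asked how the family stood in established heart failure. At week 5, 3 of the 4 tested members (Ctgf, Wisp2 and Nov) rose over control and Cyr61 gave no call. Calls here are an adjusted p under 0.05 in limma, a linear model on log2(FPKM + 0.5) fitted over 12759 genes, with Benjamini-Hochberg adjustment over all of them. Of these genes, 24.0% were called at HF week 5, 11.6% as higher and 12.4% as lower. The count was 3062 genes, and 1355 without HF week 5 library 1. The median log2 fold change of all tested genes was 0.04.

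Ctgf measured 20.8, 29.7, 22.6, 20.1 and 19.18 FPKM in the 5 control libraries. At HF week 5 it measured 143, 87.4 and 82.7 FPKM. Every failing heart stood far above every control, and the lowest HF value was more than the highest control by a wide margin. The log2 fold change was 2.16 (SE 0.21, limma adjusted p = 5.33e-06), and it was 1.91 without HF week 5 library 1 and the HF week 3 libraries (adjusted p = 4.55e-05).

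Wisp2, the member without a C-terminal domain, was at 10.5, 10.1, 4.96, 4.66 and 6.24 FPKM in controls. HF week 5 gave 32.7, 17.98 and 34.0 FPKM, again without overlap with the controls. Its log2 fold change was 1.90 (SE 0.38, limma adjusted p = 0.00185), and 1.77 without the same libraries (adjusted p = 0.0116).

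Nov, the family member often found to oppose Ctgf, was a low transcript in control hearts, at 1.29, 1.40, 0.674, 1.33 and 0.962 FPKM. The 3 HF week 5 libraries held 3.80, 3.48 and 2.17 FPKM. These ranges did not overlap, and ranges lying apart in this direction were seen for 14.8% of all tested genes. The log2 fold change was 1.15 (SE 0.20, limma adjusted p = 6.18e-04), or 1.02 without those 3 libraries (adjusted p = 0.00271). Because 0.5 was added before the logarithm, this value understates the change of so low a transcript.

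Cyr61, which shares TEAD-driven transcription with Ctgf, was at 20.4, 108, 52.1, 19.16 and 16.6 FPKM in controls and at 29.0, 22.8 and 27.6 FPKM at HF week 5. The HF values lay within the wide control range. The log2 fold change was -0.31 with a 95% interval from -1.46 to 0.85 (limma adjusted p = 0.724). It was -0.37 without HF week 5 library 1 and the HF week 3 libraries (adjusted p = 0.725), and it turned to 0.12 without Control week 19 library 2. The upper bound lay under the log2 fold change of Ctgf, and an interval this wide does not show that Cyr61 stayed level.

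**Figure D1:**
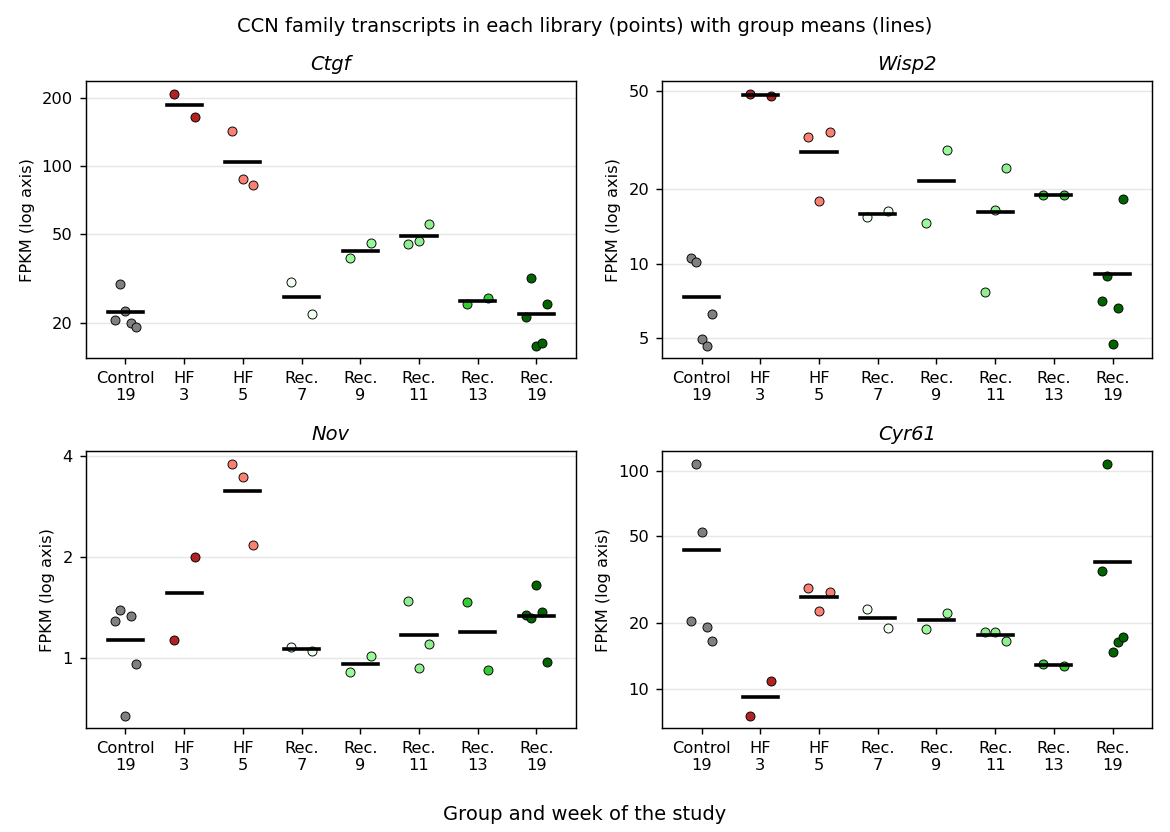
FPKM of the 4 tested members on a log axis in each library (points), by group and week of the study, with the group mean as a line. Ctgf and Wisp2 stand highest at HF week 3, Nov stands highest at HF week 5, and Cyr61 reaches 108 FPKM in 1 control and 1 Recovery week 19 library.

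Markers of other cell types moved in the same contrast. Of 8 fibroblast markers 5 rose, and their summed FPKM was 294 to 435 in controls and 405 to 848 at HF week 5. Of 8 endothelial markers 5 rose, with sums of 273 to 345 and 409 to 608, and of 8 smooth muscle and pericyte markers 4 rose, with sums of 129 to 162 and 196 to 287. Of 8 macrophage and leukocyte markers 0 were called, with sums of 249 to 428 and 306 to 584. Of 3 tested adipocyte markers 2 rose, with a median log2 fold change of 3.15, and the sum over all 5 was 1416 to 3202 in controls and 2302 to 3178 at HF week 5. None of these 5 lists had a marker at 0 in every library of either group. Of 10 cardiomyocyte markers 2 rose and 2 fell, and 3 of the 10 were at 0 in every control library. The part of these cell types' RNA in the rise of Ctgf, Wisp2 and Nov was not tested.

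The members were then set against each other within each heart, as log2 ratios of FPKM + 0.5. Such ratios reduce a scaling shared by a library. The added 0.5 keeps it from cancelling fully, most of all for Nov, the lowest of the tested members. The Ctgf to Cyr61 ratio, here of FPKM without the 0.5, was 0.276 to 1.16 in controls and 2.99 to 4.92 at HF week 5. The log2 fold changes of the pair differed by 2.47 between these groups (exact permutation test, two-sided p = 0.0357, the smallest that 3 against 5 libraries allow). Over the 12 ratio tests run, the adjusted p was 0.0714, so no ratio could be called after adjustment. Ctgf and Wisp2 differed from each other by 0.26 in the same contrast, with overlapping ratios (exact permutation p = 0.5). Ctgf and Nov differed by 1.01 (exact permutation p = 0.0357, adjusted p = 0.0714), and their ratios did not overlap with 0.5 added. Without the added 0.5, the ratios of this pair overlapped. Control week 19 library 3 (22.6 FPKM of Ctgf, 0.674 of Nov) then stood above HF week 5 library 2 (87.4 and 3.48). Cyr61 differed from Nov by -1.46 and from Wisp2 by -2.21, with the same p and without overlap, and Nov differed from Wisp2 by -0.75 (exact permutation p = 0.143, adjusted p = 0.190) with overlap.

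As a summed level, the family stood at 74.1 ± 44.4 FPKM in controls (SD, n = 5) and at 162 ± 40.5 at HF week 5 (SD, n = 3). Its makeup also differed between the groups. Ctgf supplied 19.97 to 44.6% of the sum in controls and 56.4 to 68.5% at HF week 5. Cyr61 supplied 38.5 to 72.2% in controls and 13.9 to 18.9% at HF week 5. Nov never exceeded 4.47% of the sum in any library. The summed values and shares are descriptions and were not tested.

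**Figure D2:**
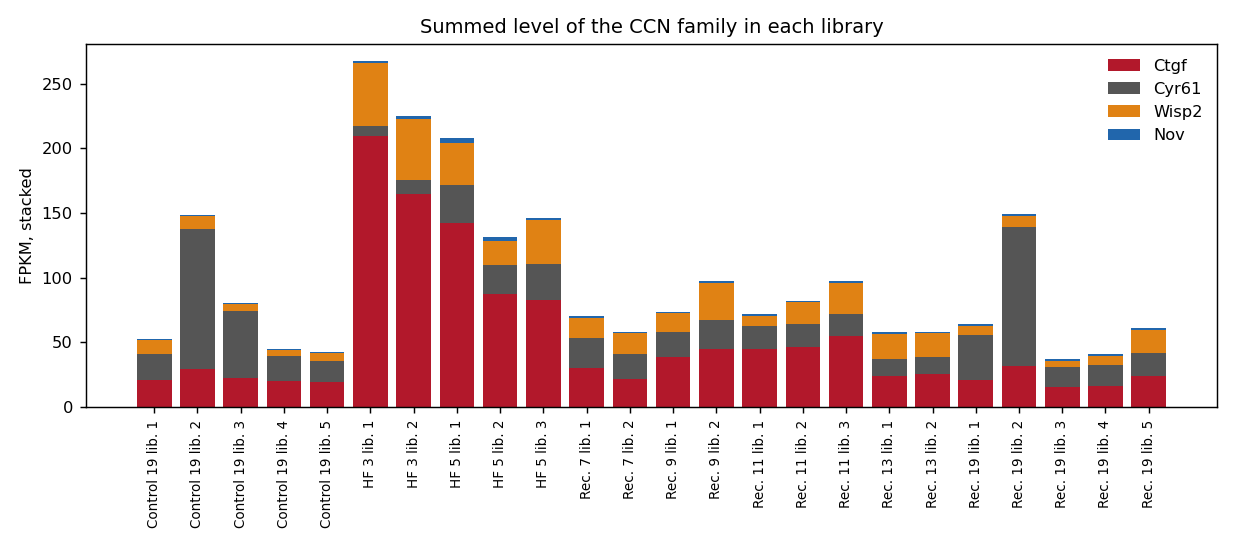
FPKM of Ctgf, Cyr61, Wisp2 and Nov stacked for each library, with libraries in group order along the horizontal axis. The HF bars are mostly Ctgf, whereas Control week 19 library 2 and Recovery week 19 library 2 are mostly Cyr61.

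HF week 3, the midpoint of induction, followed the family earlier in the disease. Here 3 of 4 members were called against control, Ctgf and Wisp2 as higher and Cyr61 as lower, in a comparison that called 50.7% of all genes. The 2 Ctgf values were 210 and 165 FPKM, the highest of the series, and 21.4% of genes likewise lay above every control. The log2 fold change of Ctgf was 3.04 (SE 0.24, limma adjusted p = 3.5e-08). Wisp2 reached 48.9 and 47.7 FPKM, with a log2 fold change of 2.72 (SE 0.44, limma adjusted p = 7.11e-05). In the same contrast 5 of 8 fibroblast, 6 of 8 endothelial, 3 of 8 smooth muscle and pericyte, 4 of 6 epicardial and mesothelial and 3 of 3 adipocyte markers tested rose, as did 7 of 7 fibrillar matrix genes (median 1.96). Of the endothelial markers, 1 fell. Of 10 cardiomyocyte markers 3 rose and 4 fell, and 3 of the 10 were at 0 in every control library. Of 8 macrophage and leukocyte markers 1 rose and 1 fell. The fibroblast sum was 615 to 739 FPKM, above the 294 to 435 of controls. The part of these lists in the rise of Ctgf and Wisp2 was not tested.

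Cyr61 stood at 7.51 and 10.8 FPKM at HF week 3, below all 5 controls, as were 23.9% of all tested genes. Its log2 fold change was -1.80 (SE 0.64, limma adjusted p = 0.024). The call was lost without HF week 3 library 1 (-1.55, adjusted p = 0.177) and with only these groups in the fit (adjusted p = 0.0874). The 14 immediate-early genes described below with Cyr61 gave 4 calls as lower and 0 as higher in the same contrast, with a median log2 fold change of -1.09.

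Nov measured 1.13 and 2.00 FPKM at HF week 3, and its log2 fold change of 0.33 was not called (limma adjusted p = 0.237).

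Between the HF time points, 2 of 4 members were called, in a comparison that called 21.4% of genes. Ctgf was higher at week 3 than at week 5 by 0.88 (SE 0.27, limma adjusted p = 0.0286), and Nov was lower, at -0.82 (SE 0.25, limma adjusted p = 0.0288). Ctgf lost its call without HF week 5 library 2 or 3 (adjusted p = 0.0863 and 0.091), and Nov without library 1 or 2 (0.0685 and 0.0844). With only the compared groups in the fit, neither was called (adjusted p = 0.533 for both). Neither call held without HF week 3 library 1, where the values were 0.70 for Ctgf (adjusted p = 0.439) and -0.51 for Nov (adjusted p = 0.55). Wisp2 differed by 0.82 (SE 0.48, limma adjusted p = 0.212) and Cyr61 by -1.50 (SE 0.69, limma adjusted p = 0.117), both short of a call.

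Once the agents were stopped, the 3 members that had risen each gave their own series of levels, and they were set against one another as ratios at week 19 only. Nov was down by the first recovery time point, Ctgf was low at week 7 with higher values at weeks 9 and 11, and Wisp2 had group means between those of HF week 5 and of control through week 13. The question at each week was whether a member differed from HF week 5 and from the week 19 controls. Those comparisons share their HF week 5 and control libraries, so they are given side by side and not combined.

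Nov lay between 0.907 and 1.48 FPKM in the 9 libraries of Recovery weeks 7 to 13, with a median of 1.05, and 2 of the 9 exceeded the highest control. It fell relative to HF week 5 by 1.19 at week 7, 1.29 at week 9, 1.11 at week 11 and 1.09 at week 13 on the log2 scale (limma adjusted p = 0.00475, 0.00697, 0.00488 and 0.011). The calls of Nov were lost without Recovery week 7 library 2, without either week 9 library or without either week 13 library, and at all 4 weeks with only the compared groups in the fit. Over all these fits the adjusted p was at most 0.148. The share of all genes called against HF week 5 was 14.8%, 6.57%, 9.77% and 10.4% at these weeks. Against control, Nov was within -0.14 to 0.06 on the log2 scale at these weeks and was not called, with 0.0470%, 0.0549%, 0.149% and 0.0784% of all genes called at weeks 7, 9, 11 and 13.

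Ctgf held 30.5 and 22.0 FPKM at Recovery week 7 and 39.0 and 45.2 at week 9. Week 11 gave 44.8, 46.3 and 55.3 FPKM, and week 13 gave 24.3 and 25.9. Weeks 9 and 11 therefore stood above every control, as did 7.33% and 5.75% of all tested genes, whereas weeks 7 and 13 overlapped the controls. The difference between recovery weeks was not itself tested.

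Against HF week 5, Ctgf fell by 1.94 at week 7, 1.26 at week 9, 1.05 at week 11 and 1.99 at week 13 on the log2 scale (limma adjusted p = 4.18e-04, 0.0123, 0.00988 and 0.00131). The week 9 call of Ctgf was lost without HF week 5 library 1 (adjusted p = 0.0516) or either week 9 library (at most 0.179), and the week 11 call without HF week 5 library 1 (0.0669) or Recovery week 11 library 1. With only the compared groups in the fit, week 7 alone kept its call. Against control, only week 11 gave a call for Ctgf, at 1.11 (SE 0.21, limma adjusted p = 0.0389), the single call among the 4 tested members. That call was lost in 10 of 35 alternatives, with an adjusted p of 0.388 without Recovery week 11 library 3, and among the rest were the fits without Control library 1, 3, 4 or 5. Week 9 gave 0.90 (SE 0.24, limma adjusted p = 0.541, unadjusted p = 0.00142).

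Wisp2 was at 15.4 and 16.3 FPKM at week 7 and at 14.6 and 28.8 at week 9. It was at 7.67, 16.6 and 24.4 FPKM at week 11 and at 19.01 and 18.96 at week 13. In all, 8 of these 9 libraries exceeded the highest control value of 10.5 FPKM, a count not made over all genes. At week 9, where Wisp2 lay above every control, so did 7.33% of all tested genes. The log2 fold changes against control were 1.14, 1.50, 1.03 and 1.40 at weeks 7, 9, 11 and 13. None passed the adjustment over all genes in limma (adjusted p = 1, 0.821, 0.403 and 0.285), with unadjusted p of 0.0174, 0.00279, 0.0144 and 0.00489. At these weeks 3.61%, 3.60%, 8.45% and 10.4% of all genes had an unadjusted p under 0.05. Against HF week 5, Wisp2 was at -0.76, -0.40, -0.87 and -0.51, also without a call. Before adjustment, the 95% intervals against control lay above 0 at each of these weeks (0.22 to 2.06, 0.58 to 2.42, 0.23 to 1.83 and 0.48 to 2.32), and the missing calls do not show that the level had returned to control.

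Fibroblast markers varied over the same weeks. Their summed FPKM, given above for controls and HF week 5, was 318 to 396 at Recovery week 7, 419 to 487 at week 9, 505 to 821 at week 11 and 476 to 610 at week 13. The libraries ranked the same in Wisp2 and in the fibroblast sum within weeks 9 and 11, and in the opposite order within weeks 7 and 13. Weeks 7, 9 and 13 hold only 2 libraries each, and Wisp2 at week 13 was 19.01 and 18.96 FPKM, so these orders carry little weight. The sums of 8 macrophage and leukocyte markers were 249 to 428 in controls, 206 to 248 at week 7, 232 to 421 at week 9, 459 to 651 at week 11 and 544 to 716 at week 13. The endothelial sum, 409 to 608 at HF week 5, was 265 to 300 in all 9 libraries of weeks 7 to 13, and the epicardial and mesothelial sum was 12.5 to 85.8 at HF week 5 and 1.79 to 4.21 in these 9. The smooth muscle and pericyte sum, 196 to 287 at HF week 5, was 143 to 149 at week 7 and 108 to 207 over weeks 9 to 13. The part of these cell types' RNA in the Ctgf, Nov and Wisp2 levels was not tested.

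**Figure D3:**
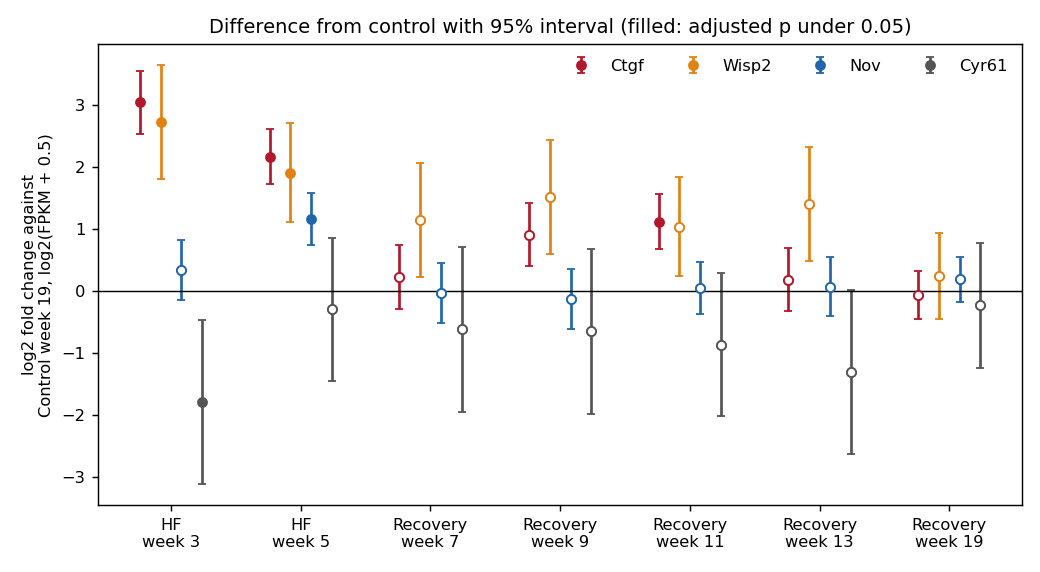
Log2 fold change of each member against Control week 19, on log2(FPKM + 0.5), with its 95% interval, by group and week. Filled points passed an adjusted p under 0.05, and open points did not. Ctgf spans 3.04 at HF week 3 to -0.07 at Recovery week 19, and no recovery point other than Ctgf at week 11 is filled.

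At Recovery week 19, the end of the series, no tested member differed from its age-matched controls. Of the 4 members, 0 were called by limma and 0 had an unadjusted p under 0.05, where 0.0235% of all genes were called and 2.88% had such an unadjusted p. Ctgf measured 21.3, 31.6, 15.9, 16.3 and 24.3 FPKM, with 1 library above the highest control and 2 below the lowest. Its log2 fold change against control was -0.07, with a 95% interval from -0.45 to 0.32. The intervals were -0.18 to 0.54 for Nov, -0.46 to 0.93 for Wisp2 and -1.24 to 0.76 for Cyr61. These intervals leave room for changes of moderate size, most of all for Cyr61 and Wisp2.

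Against HF week 5, the same 3 members that had risen were called as lower at week 19, in a comparison that called 24.2% of all genes and 12.0% as lower. The count over all genes was 3092, and 1545 without HF week 5 library 1. Ctgf fell by 2.23 on the log2 scale (SE 0.21, limma adjusted p = 7.44e-06), and by 1.98 without HF week 5 library 1 and the HF week 3 libraries (adjusted p = 3.14e-05). Wisp2 measured 7.06, 8.90, 4.75, 6.64 and 18.3 FPKM and fell by 1.67 (SE 0.38, limma adjusted p = 0.00438), or by 1.54 without those libraries (adjusted p = 0.0223). Its highest week 19 library reached just into the HF range. Nov measured 1.34, 1.32, 1.66, 1.38 and 0.976 FPKM and fell by 0.97 (SE 0.20, limma adjusted p = 0.00209), or by 0.84 without them (adjusted p = 0.00856). Several marker lists also held genes called as lower at week 19 than at HF week 5, with 4 of 4 atrial, 5 of 6 epicardial and mesothelial, 5 of 8 smooth muscle and pericyte, 4 of 8 endothelial, 2 of 8 fibroblast and 2 of 3 adipocyte markers tested. By contrast, 1 smooth muscle and pericyte marker was called as higher, as were 3 of 10 cardiomyocyte markers, and the 8 macrophage and leukocyte markers had a median log2 difference of 0.02. Their part in the fall of these members was not tested. Cyr61 differed from HF week 5 by 0.07, with a 95% interval from -1.09 to 1.22.

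The other 6 of the 12 ratio tests compared Recovery week 19 with HF week 5. The log2 change of Ctgf differed from that of Cyr61 by -2.29 and from that of Nov by -1.26, both without overlap of the ratios (exact permutation p = 0.0357, adjusted p = 0.0714 for each). Ctgf differed from Wisp2 by -0.56 (exact permutation p = 0.179) and Nov from Wisp2 by 0.70 (exact permutation p = 0.286). Cyr61 differed from Nov by 1.04 (exact permutation p = 0.143) and from Wisp2 by 1.73 (exact permutation p = 0.0714). The ratios of these last 4 pairs overlapped between the groups, and none of the 6 passed the adjustment.

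Cyr61 ranged more widely within each week 19 group than its group means did over the whole series, which ran from 9.15 FPKM at HF week 3 to 43.2 FPKM in controls. It measured 34.7, 108, 14.8, 16.4 and 17.3 FPKM at Recovery week 19. Across both week 19 groups, 4 libraries (Control libraries 2 and 3, Recovery libraries 1 and 2) held 34.7 to 108 FPKM and the other 6 held 14.8 to 20.4. Ctgf shared 3 of its 4 highest libraries with Cyr61 but overlapped between these sets, with 21.3 to 31.6 FPKM in the 4 libraries and 15.9 to 24.3 in the other 6.

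Immediate-early genes, which are transcribed within minutes of a stimulus without new protein synthesis, were read in the same libraries. The list of 14 was chosen after the Cyr61 values had been seen. In 11 of the 14, the same 4 libraries were the highest of the 10, against 103 of 12759 tested genes (0.807%). Fos, a subunit of AP-1, was at 15.1 to 47.3 FPKM in the 4 libraries and at 0.787 to 5.68 in the other 6. Egr1, a zinc finger transcription factor, was at 42.3 to 132 and at 2.44 to 28.1 FPKM. Dusp1, a phosphatase that switches off MAP kinases, was at 99.1 to 181 and at 38.5 to 75.1 FPKM. The shortened cAMP response element shown above for Cyr61 is a description of its sequence and was not tied to these levels.

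**Figure D4:**
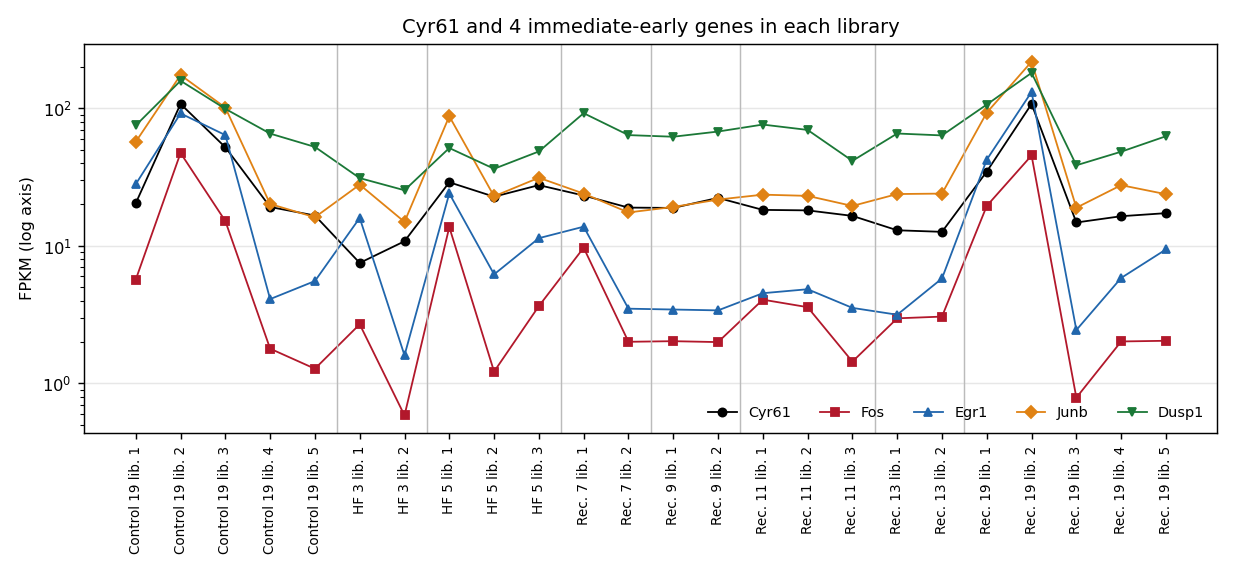
FPKM on a log axis of Cyr61 and the immediate-early genes Fos, Egr1, Junb and Dusp1 in each of the 24 libraries, in group order. Cyr61 is at 108 FPKM in Control week 19 library 2 and in Recovery week 19 library 2, where the other 4 genes are also high.

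The genes whose profile over the 8 group means lay closest to each member were found by root mean square distance of centred log2 values. For Ctgf these were Postn, a matricellular protein of activated fibroblasts (distance 0.18), Tmem119 (0.22), Mfap4 (0.25), Csrp2 (0.28) and Anxa8 (0.28). Postn had mean FPKM of 5.34 in controls, 50.3 at HF week 3, 21.3 at HF week 5 and 10.8 at Recovery week 11. For Wisp2 they were beta3GalNAcT2, Cda, Acta1, Rpp25 and H1fx (0.26 to 0.35). Acta1, the skeletal alpha-actin re-expressed in hypertrophy, had mean FPKM of 237 in controls, 1570 at HF week 3 and 1044 at HF week 5.

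For Nov the closest genes were Fam55b, Hdc, Pdk3, Sertad4 and AK079804 (0.12 to 0.15). Hdc, the enzyme that makes histamine, had mean FPKM of 0.907 in controls, 2.09 at HF week 3 and 3.45 at HF week 5. For Cyr61 they were Tmem86b, ClaspL, Tmc8, Sfrs3 and Sox10 (0.18 to 0.25). These neighbours depended on the processing. With a pseudocount of 1, 4 of the 5 genes remained for Ctgf, 4 for Nov, 3 for Wisp2 and 2 for Cyr61. With distances over the 24 single libraries instead of group means, 1 of 5 remained for Ctgf, Nov and Wisp2 and 0 for Cyr61. The 5 genes then closest to Cyr61 were Fosb, Zfp36, Dusp1, Btg2 and Junb (0.42 to 0.56), all of them immediate-early genes of the list above.

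Other genes of the pathways around the family were counted at HF week 5 against control, where 11.6% of all genes were called as higher and 12.4% as lower. Of 18 genes of the Hippo pathway and its effectors, 2 rose and 3 fell, near these shares, and the median log2 fold change was -0.08. The coactivator Yap1 fell by 0.28 (limma adjusted p = 0.0259) and Tead1, its DNA-binding partner, by 0.52 (limma adjusted p = 0.0209), while Tead2 rose by 0.39 (limma adjusted p = 0.0325). Nf2, an upstream activator of the Hippo kinases, fell by 0.67 (limma adjusted p = 0.00714). The kinases Lats1 (0.09) and Lats2 (-0.13) were not called. RNA levels do not report the activity of these proteins.

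Of 15 other YAP and TAZ target genes, 6 rose and 0 fell, with a median of 0.28. The 6 were Ankrd1, Fstl1, Tgfb2, Jub, Ptpn14 and Myof. Ankrd1, a cardiac stress protein of the sarcomere and nucleus, changed most of them, by 1.20 (SE 0.25, limma adjusted p = 0.00233). Ctgf, at 2.16, stood above all 15, and Cyr61, at -0.31, stood below 13 of them. Amotl2, at -0.49, had the lowest value and was not called.

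**Figure D5:**
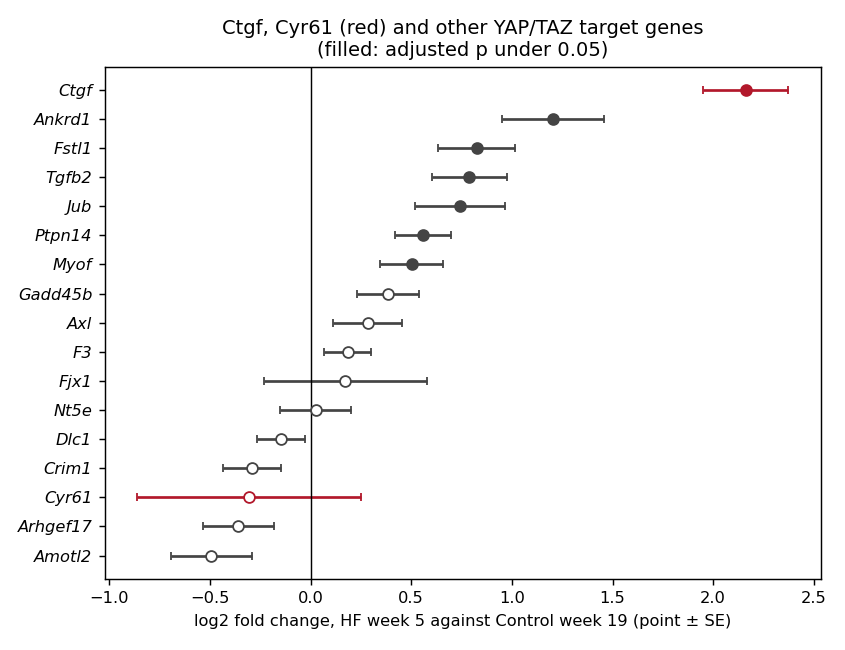
Log2 fold change at HF week 5 against Control week 19, with its SE, for Ctgf and Cyr61 (red) and 15 other YAP and TAZ target genes. Filled points passed an adjusted p under 0.05. Ctgf lies farthest to the right at 2.16, and Cyr61 lies at -0.31 with the widest error bar.

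Of 14 TGF-beta and SMAD genes, 4 rose and 1 fell (median 0.09). Tgfb2, a ligand, rose by 0.79 (limma adjusted p = 0.00504) and Tgfb3 by 0.64 (limma adjusted p = 0.0226), whereas Tgfb1 was at 0.18 without a call. Ltbp2, a matrix protein related to the latent TGF-beta binding proteins, rose by 2.13 (limma adjusted p = 0.00388). Among 4 SRF and MRTF genes, 0 rose and Myocd fell by 1.08 (limma adjusted p = 0.00702).

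Of 18 receptors and binding partners of CCN proteins, 7 rose and 1 fell (median 0.27). The integrin subunits Itgb3, Itgav and Itgb5 rose by 0.97, 0.66 and 0.35, and the coreceptor Lrp1 rose by 0.60 (limma adjusted p = 0.00799, 0.00808, 0.0393 and 0.00782). The matrix partners Bgn, Fn1 and Dcn rose by 1.26, 1.17 and 0.95 (limma adjusted p = 0.00435, 3.64e-04 and 0.00836), and Igf2r fell by 0.39 (limma adjusted p = 0.0386). Of 6 tested genes of angiotensin and endothelin signalling, Ednrb and Nos3 rose and Agtr1a fell. Agtr1a, the main receptor of the infused angiotensin II, fell by 1.08 (SE 0.23, limma adjusted p = 0.00265). In the fibrillar matrix list, 5 of 7 genes rose and 0 fell (median 0.57).

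At Recovery week 19 against control, 0 genes were called in any of these 7 lists, with 0.0235% of all genes called. Against HF week 5, where 12.3% of all genes were called as higher and 12.0% as lower, the Hippo list had 3 of 18 genes higher and 0 lower at week 19, and the SRF and MRTF list had 1 of 4 higher and 0 lower. The other YAP and TAZ targets had 1 higher and 5 lower of 15, TGF-beta and SMAD genes 1 and 3 of 14, receptors and partners 0 and 5 of 18, angiotensin and endothelin genes 1 and 2 of 6, and fibrillar matrix genes 0 and 3 of 7. The lists were not chosen independently of these data, and their counts are descriptions.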

How the data were processed

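RNA of mouse hearts was sequenced, and the authors aligned reads with TopHat to MGSCv37 (mm9) and computed the deposited FPKM with Cuffdiff. Of 29 labelled samples in 9 groups, 24 library columns of 8 groups were used. The 5 columns of week 5 controls were not used because 4 samples carry that label, so at least 1 column there has no labelled sample. Week 9 has 2 columns for 3 samples and was kept. Library numbers follow column order. The members and gene lists were chosen with earlier results of these data known. Named genes were the members, the 5 genes closest to each by group means, and genes of the lists as their roles required.

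FPKM were tested as log2(FPKM + 0.5) with limma 3.58.1 in R 4.3.3 for the 12759 genes averaging 0.5 FPKM or more, with 1 mean per group, eBayes with trend, 16 residual degrees of freedom and 13 contrasts. Two-sided exact permutation tests used scipy 1.17.1. The procedure was tested on simulated data. P-values measure the spread between these libraries. The study was run in 4 cohorts that the labels do not give, so cohort and group cannot be told apart. Alternatives changed the pseudocount, filter, scaling, fit or libraries. Promoters came from RefSeq (GRCm38.p6), not the build of the FPKM. The values of 1 listed gene are not reported here.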

Additional observations from a re-analysis of the deposited data

Results flagged for a closer look

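Cyr61 in Recovery week 19 library 2 was 107.566 FPKM. Its distance from the next library was 0.786 of the group's range, above the critical value of 0.71 for 5 samples. This check used FPKM and not the log2 scale of the other tests, on which the distance is a smaller share of the range. The 4 tested members were examined in the 2 groups of 5 libraries, 8 checks in all. Chance marks about 1 in 20 where values are normally distributed, which FPKM need not be. Control week 19 library 2 was almost as high at 107.602 FPKM but was not marked, because another control reached 52.1 FPKM.

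The HF week 3 difference from control exceeded that of HF week 5 by 0.877 on the log2 scale for Ctgf (limma adjusted p = 0.0286) and was -0.823 relative to it for Nov (limma adjusted p = 0.0288). Both rest on 2 HF week 3 libraries, and neither kept its call without library 1 of that group.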

How the results depend on the processing

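No paired analysis was possible because the columns carry no replicate letters and each heart was taken once. In all 35 alternatives, 3 members were called at HF week 5, 3 at Recovery week 19 against HF week 5, and 0 at week 19 against control. At the other weeks 14 of 40 tests were called, against 4 with only the groups compared in the fit, where fewer libraries set the spread, and 9 without the HF week 3 libraries, with or without HF week 5 library 1, where those comparisons are not made. Leaving out single libraries gave 11 to 14. All genes called numbered 3062 at HF week 5 (4653 without adjustment, 1355 to 4363 leaving out single libraries, lowest without HF week 5 library 1), 3092 at week 19 against HF week 5 (4695, and 1545 to 4371, lowest without the same library) and 3 at week 19 against control (367 without adjustment, 3 to 5 leaving out single libraries, 5 without HF week 5 library 1 and the HF week 3 libraries).

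Of 1804 member values under the alternatives, 18 changed sign, 37 lost a call and 6 gained one. Every sign change came from leaving out 1 library, none was of a called value, and the cause was not tested. Over the left-out libraries, the difference from control ranged as follows. Ctgf spanned -0.0098 to 0.45 at week 7 and -0.21 to 0.036 at week 19. Nov spanned -0.15 to 0.023 (week 7), -0.085 to 0.15 (week 11) and -0.17 to 0.30 (week 13). Wisp2 spanned -0.043 to 0.42 at week 19, lowest without Recovery library 5. Cyr61 spanned -0.54 to 0.12 at HF week 5 and -0.72 to 0.19 at week 19, highest in both without Control library 2. Against HF week 5, Cyr61 spanned -0.42 to 0.29 at week 19 and Wisp2 -0.88 to 0.082 at week 9. Median centring moved the median of all genes by over 0.1 only for week 13 against HF week 5 (0.104). Wisp1 was too low to test.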
